A study of Mus musculus with 12 samples.

Results

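Mt1 and Mt2, the metallothionein genes that mouse liver expresses, and Lcn2, the gene of lipocalin 2, were read on every liver array of a study of Fah and p21 knockout mice. The 3 genes were chosen by their signals in these data: they were higher in knockout livers off NTBC than in normal livers, while most other acute phase genes were lower. Their levels in those contrasts are therefore a description without a test. Every probe set annotated to Mt1, Mt2 or Lcn2 and to no other symbol was taken. That gave 4 probe sets of 22626 on the 430A array design and 4 of 45037 on the 430 2.0 design, of 12393 and 18193 genes with a probe set of a single symbol.

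Fah encodes fumarylacetoacetate hydrolase, which completes the breakdown of tyrosine, and the drug NTBC stops that pathway at an earlier step. p21, the product of Cdkn1a, inhibits cyclin-dependent kinases. The arrays measured RNA of livers of mice aged 10 weeks. The Fah p21 off group held livers of Fah, p21 double knockout mice 14 days after NTBC was withdrawn, with 2 on 430A (Fah p21 off 1 and 2) and 2 more on 430 2.0 (Fah p21 off 3 and 4). The Fah off group held 3 livers of Fah knockout mice after the same withdrawal, all on 430A, so all off livers lacked Fah. The normal group followed the titles and pooled 4 conditions with 1 mouse each on 430A: normal 1 was wildtype on water, normal 2 wildtype on NTBC, normal 3 a Fah knockout on NTBC and normal 4 a Fah, p21 double knockout on NTBC. A normal 4 array was also made on 430 2.0, and the shared replicate number was taken to mean the same mouse. The labels name no strain, sex or allele. The titles call the arrays biological replicates, and p-values measure only the spread between these samples.

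Metallothioneins are small, cysteine-rich proteins that bind zinc and copper and can react with oxidants. Their genes are switched on by the zinc-sensing factor MTF-1 through metal response elements, and in liver also by glucocorticoids and by inflammatory cytokines. Lipocalin 2 is a secreted protein that binds the siderophores with which bacteria collect iron. It is made by hepatocytes during the acute phase response and is also stored in the granules of neutrophils.

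The promoter windows of the 3 genes are shown so that the motif matches described after them can be read in place. They are RefSeq sequences of the mouse assembly GRCm38.p6, each reaching from 250 bases before the gene's start to 50 after it, and all 3 genes were found in that table. The Mt1 window is chr8:94178839-94179138 and the Mt2 window chr8:94172368-94172667, both on the plus strand. The Lcn2 window is chr2:32387690-32387989 on the minus strand. No other gene of the RefSeq table started between Mt2 and Mt1 (0 genes), so the metallothionein genes were direct neighbours. In Mt1 and Mt2 the capitals mark the metal response element core (TGCACNC or TGCGCNC on either strand), and in Lcn2 a C/EBP motif (TTGCNNAA), the binding motif of the acute phase factors of the C/EBP family.
Mt1: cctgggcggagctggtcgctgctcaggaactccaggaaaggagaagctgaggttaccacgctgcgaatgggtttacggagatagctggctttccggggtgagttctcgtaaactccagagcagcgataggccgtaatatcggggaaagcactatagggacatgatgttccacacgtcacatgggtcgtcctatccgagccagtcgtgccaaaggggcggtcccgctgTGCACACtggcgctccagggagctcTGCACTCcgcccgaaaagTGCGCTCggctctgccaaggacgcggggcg
Mt2: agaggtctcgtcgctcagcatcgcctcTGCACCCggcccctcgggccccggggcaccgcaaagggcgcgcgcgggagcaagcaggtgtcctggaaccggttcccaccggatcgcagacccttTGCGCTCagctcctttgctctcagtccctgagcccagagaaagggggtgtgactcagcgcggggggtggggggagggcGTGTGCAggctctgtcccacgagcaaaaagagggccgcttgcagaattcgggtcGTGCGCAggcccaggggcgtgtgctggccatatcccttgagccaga
Lcn2: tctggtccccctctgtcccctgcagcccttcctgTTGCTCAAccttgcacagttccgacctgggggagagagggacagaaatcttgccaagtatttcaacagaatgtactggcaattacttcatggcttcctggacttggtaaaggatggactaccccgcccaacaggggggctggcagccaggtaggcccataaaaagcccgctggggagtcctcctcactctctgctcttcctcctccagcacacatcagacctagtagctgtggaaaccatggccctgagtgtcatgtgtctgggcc
The Mt1 window held 3 metal response element cores, with first bases at -23, 3 and 21 from the gene's start. The Mt2 window held 4, at -223, -128, -50 and 5, and the Lcn2 window held 0. Of 32851 windows of the same length, 25.7% held at least 1 such core and 1.97% held 3 or more. A core of the antioxidant response element (TGACNNNGC), the site of the oxidant-sensing factor Nrf2, was found in the Mt2 window at -79 and not in the windows of Mt1 and Lcn2, and 12.4% of all windows held it. The C/EBP motif was found in the Lcn2 window at -216 and in the Mt2 window at -12, against 10.8% of all windows. A STAT motif (TTCNNNGAA), the kind of site used by the interleukin-6 signal, was in none of the 3 windows (0 matches in each) and in 8.3% of all windows. Glucocorticoid and NF-kB sites were not searched, and neither was sequence outside the windows. The starts are those of the RefSeq table, so a motif absent from a window may still lie in the promoter outside it. No motif searched overlapped another in these windows. These matches describe letters in a window and do not show that a factor binds there.

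Signals are MAS5 intensities on a linear scale, which the authors had scaled so that the mean between the 2nd and 98th percentiles lay between 347.5 and 348.8 on every array. Differences between groups are differences of mean log2(signal + offset), with an offset of 9.9 on 430A and 3.8 on 430 2.0, so they understate changes of dim probe sets. Tests used limma across the 15307 probe sets of 430A whose signal reached the 40th percentile of the array on 2 or more arrays, with Benjamini-Hochberg adjustment over all of them and a threshold of 0.05. Of the 4 member probe sets on 430A, 3 passed this filter, and on 430 2.0 all 4 did. Fah signal was between 100.8 and 114.2 in the 5 off livers, against 6868 and 7120 in the wildtype livers and 181.9 and 233.0 in the knockout livers on NTBC. The Cdkn1a probe set 1421679_a_at was at 9.5 and 8.2 in Fah p21 off livers, against 989.5 to 1862 in Fah off livers and 14.7 to 51.4 in normal livers, whereas 1424638_at was at 1828 and 2060, at 2814 to 3936 and at 75.2 to 257.7 in the same groups. Whether either Cdkn1a probe set lies inside the deleted part is not known. All 10 hepatocyte markers measured reached the 40th percentile in every group, so the arrays were of liver by these markers. In bulk liver RNA, fewer cells of a type and less RNA per cell cannot be told apart.

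Mt1, read by probe set 1422557_s_at, had signals of 5366 and 5241 in Fah p21 off livers. In Fah off livers it had 5084, 4012.5 and 2829. In normal livers it had 284.6, 212.0, 847.8 and 752.2, in the order of normal 1 to 4. Every off liver lay above every normal liver, and within the normal group both knockout livers on NTBC lay above both wildtype livers. The mean was 5304 ± 88.7 in Fah p21 off livers (SD, n = 2), 3975 ± 1128 in Fah off livers (SD, n = 3) and 524.2 ± 322.3 in normal livers (SD, n = 4). Relative to the normal mean, the difference was 3.55 (11.7-fold) for Fah p21 off and 3.09 (8.52-fold) for Fah off. The lowest Fah p21 off liver had 6.18 times the signal of the highest normal liver, and the lowest Fah off liver 3.34 times. The suffix of this probe set marks probes shared by more than one transcript, and metallothionein sequences are closely alike, so a share of Mt2 RNA in this signal was not tested.

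Mt2, the neighbouring metallothionein gene, was read by probe set 1428942_at and had signals of 4521 and 4046 in Fah p21 off livers. In Fah off livers it had 4472, 3873 and 2053. In normal livers it had 377.6, 366.0, 645.3 and 731.2, again with the knockout livers on NTBC above the wildtype livers. The off and normal livers did not overlap, and Fah off 3 was the lowest off liver for both metallothioneins. The mean was 4283 ± 336.3 in Fah p21 off livers (SD, n = 2), 3466 ± 1260 in Fah off livers (SD, n = 3) and 530.0 ± 186.1 in normal livers (SD, n = 4). Relative to normal, the difference was 3.06 (8.31-fold) for Fah p21 off and 2.68 (6.40-fold) for Fah off.

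Lcn2, read by probe set 1427747_a_at, had signals of 1235 and 3309 in Fah p21 off livers. In Fah off livers it had 652.4, 637.2 and 740.6. In normal livers it had 90.0, 121.5, 54.8 and 258.6. The Fah off livers lay close together, whereas the Fah p21 off livers differed 2.68-fold from each other and the normal livers 4.72-fold from lowest to highest. The lowest normal liver was the Fah knockout on NTBC and the highest the double knockout on NTBC, a split the metallothioneins did not show. The mean was 2272 ± 1466 in Fah p21 off livers (SD, n = 2), 676.7 ± 55.8 in Fah off livers (SD, n = 3) and 131.2 ± 89.2 in normal livers (SD, n = 4). Relative to normal, the difference was 4.05 (16.5-fold) for Fah p21 off and 2.48 (5.58-fold) for Fah off.

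All 3 tested member probe sets were higher in every off liver than in every normal liver, in a table where 28.4% of tested probe sets lay so for Fah p21 off and 23.1% for Fah off. Nothing is read from these counts, because these contrasts chose the genes.

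**Figure D1:**
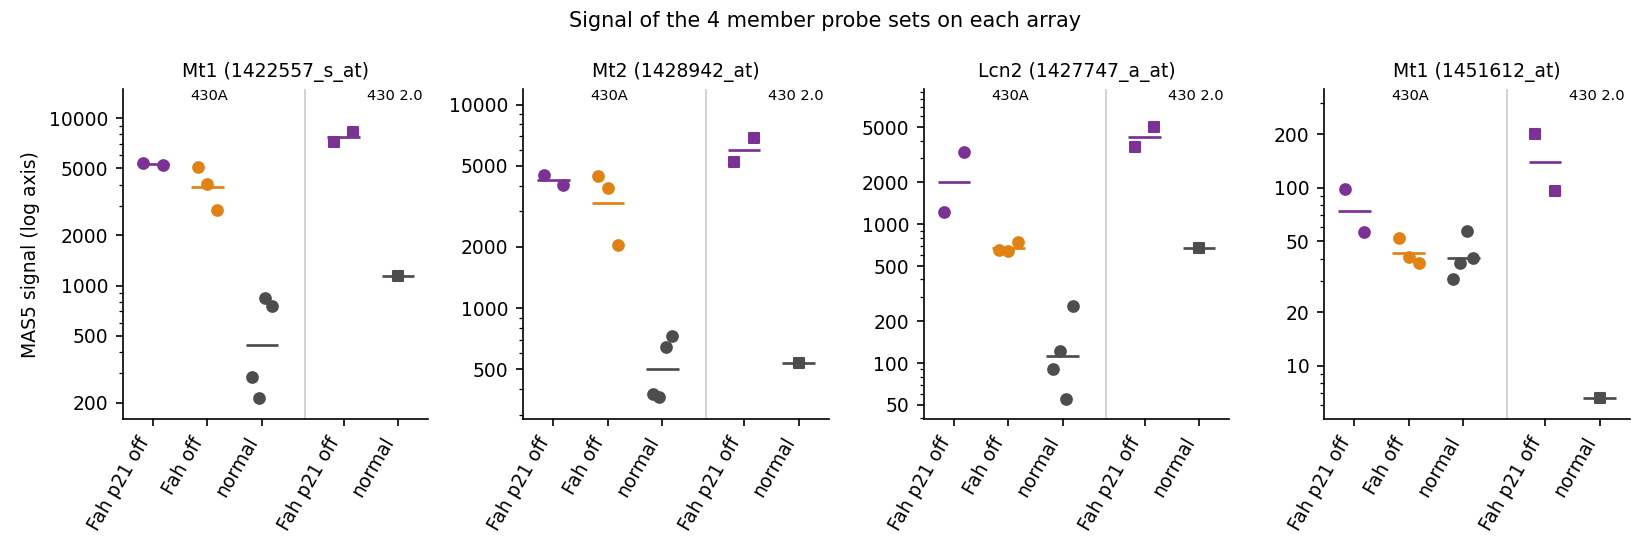
MAS5 signal (log axis) of each member probe set on each array, with Fah p21 off left of Fah off and normal, circles for 430A and squares for 430 2.0, and bars at group means of the log2 values. Mt1 (1422557_s_at), Mt2 and Lcn2 lie higher in every off liver than in every normal liver of the same design, and Mt1 (1451612_at) is dim and overlaps between the off and normal groups on 430A.

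The second Mt1 probe set, 1451612_at, was much dimmer. It had 98.2 and 56.5 in Fah p21 off livers, 52.3, 41.0 and 37.7 in Fah off livers, and 30.9, 37.7, 57.3 and 40.1 in normal livers. It stayed below the 40th percentile on all 9 arrays of 430A (0 reached it), so it was not tested there and the off livers overlapped the normal ones. On 430 2.0 it had 201.6 and 96.4 in Fah p21 off 3 and 4, against 6.6 in normal 4. The Mt1 probe sets therefore disagreed on 430A, where only the bright one separated the groups.

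On 430 2.0 the bright Mt1 probe set had 7230 and 8272 in Fah p21 off 3 and 4, against 1145 in normal 4. Mt2 had 5252 and 6872 in the same off livers, against 540.4 in normal 4. Lcn2 had 3621 and 5010, against 670.3 in normal 4. Each off liver was thus above the normal one for every member gene, by 6.30 and 7.20-fold for Mt1, 9.66 and 12.6-fold for Mt2 and 5.38 and 7.44-fold for Lcn2. The dim Mt1 probe set reached the 40th percentile on the 2 Fah p21 off arrays and not in normal 4, so its passing the filter and its difference are one observation. The other 3 member probe sets reached it on all 3 arrays and were at least 2-fold higher in both off livers, as were 11.1% of the 26925 probe sets tested. Nothing is read from this count, since the genes were chosen for this direction. These are 2 livers against 1 with no test, and levels are not compared across the designs because they were scaled separately.

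The comparison that did not choose the genes was Fah p21 off against Fah off, which asks whether loss of p21 moved the members further. None of the 3 tested members passed (0 of 3 by limma, with 1 of 3 at an unadjusted p under 0.05, and 0.0392% of all tested probe sets passing). Mt1 differed by 0.46 ± 0.51 (SE, 95% interval -0.66 to 1.57, limma adjusted p = 0.844) and Mt2 by 0.38 ± 0.36 (SE, 95% interval -0.41 to 1.16, limma adjusted p = 0.812). Lcn2 differed by 1.57 ± 0.52 (SE, 95% interval 0.44 to 2.70), a 2.97-fold higher level in Fah p21 off livers with a limma unadjusted p of 0.0111 and an adjusted p of 0.437. Both Fah p21 off livers lay above all 3 Fah off livers for Mt1 and Lcn2, as was so for 17.1% of tested probe sets, and for Mt2 the groups overlapped. The Lcn2 difference rested on uneven livers: it was 0.86 without Fah p21 off 2 and 2.28 without Fah p21 off 1, and did not pass in either case. The intervals leave room for differences of more than 2-fold in Mt1, Mt2 and Lcn2, so the missed threshold does not show equal levels.

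Each off liver was also set against the normal liver of its own genotype on NTBC, which takes genotype out of the comparison but leaves 1 control liver. These ratios and those among livers on NTBC are of signal + offset. For Mt1 the Fah p21 off livers were 7.05 and 6.89-fold above normal 4, and the Fah off livers 5.94, 4.69 and 3.31-fold above normal 3. For Mt2 the same ratios were 6.11 and 5.47 for Fah p21 off, and 6.84, 5.93 and 3.15 for Fah off. For Lcn2 they were 4.64 and 12.4 for Fah p21 off, and 10.2, 10.0 and 11.6 for Fah off. Against matched controls the Fah off livers thus stood about as far above their control for Lcn2 as the higher Fah p21 off liver, and normal 4 had 4.15 times the Lcn2 level of normal 3 on that scale (4.72 times by signal alone). In normal 3, however, Lcn2 was at 54.8, below the 40th percentile of that array (84.3). Every Lcn2 value in this paragraph that uses normal 3 therefore rests on 1 dim reading. The effect of withdrawal in double knockouts minus that in single knockouts was 0.63 ± 0.44 for Mt1, 0.20 ± 0.57 for Mt2 and -0.48 ± 0.67 for Lcn2 (SE). None passed (limma adjusted p = 0.9998 each), in a fit with 3 residual degrees of freedom that called 1 probe set of 15307.

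**Figure D2:**
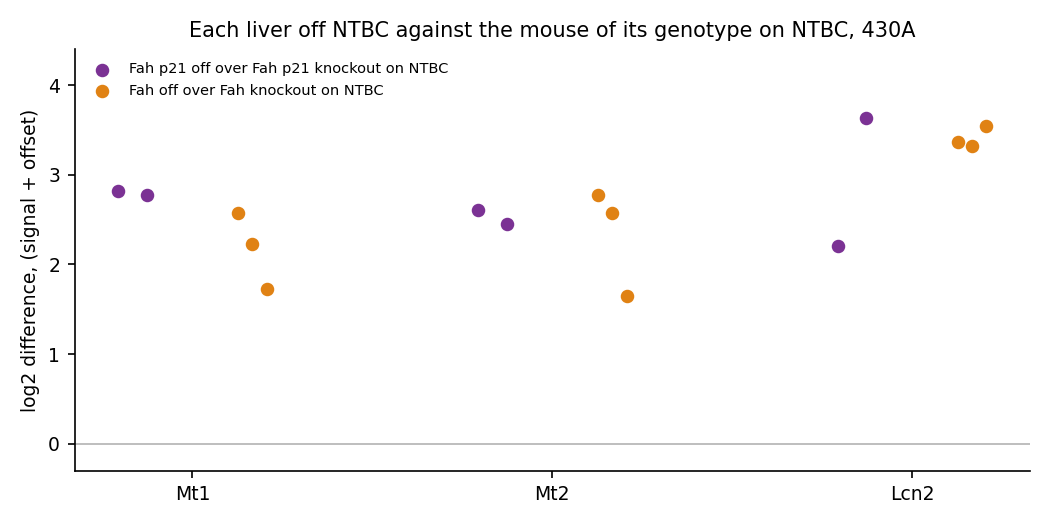
Log2 difference, on the (signal + offset) scale, of each off liver from the normal liver of the same genotype on NTBC, for Mt1, Mt2 and Lcn2, with Fah p21 off left of Fah off. For Lcn2 the Fah p21 off livers lie apart at 2.21 and 3.63 and the Fah off livers close together at 3.32 to 3.54. The Fah off values of Lcn2 rest on a control signal below the 40th percentile of its array.

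On NTBC the knockouts themselves differed from wildtype, as single livers with no test. Mt1 was 3.43-fold higher in the double knockout and 3.87-fold higher in the Fah knockout than in the wildtype on NTBC. Mt2 was 1.97 and 1.74-fold higher in the same livers. Lcn2 was 2.04-fold higher in the double knockout, and in the Fah knockout it was at 0.49 times the wildtype level. Its signal in that Fah knockout was below the 40th percentile of the array. The wildtype on NTBC had 0.75, 0.97 and 1.32 times the Mt1, Mt2 and Lcn2 level of the wildtype on water.

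The genes whose pattern over the 9 arrays of 430A was most like each member were read as a description. The arrays fall into off and normal livers, so any gene that differs between these states correlates highly. For Mt1 they were Fkbp5 (r = 0.995), Tmc6 (0.993), Dennd4c (0.993), Prdm4 (0.992) and Lpl (0.992). For Mt2 they were Pspc1 (0.989), Fkbp5 (0.989), Dennd4c (0.988), Lgals1 (0.986) and Gipc2 (0.986), and Mt1 and Mt2 correlated at 0.986 with each other. Fkbp5, a co-chaperone of the glucocorticoid receptor and a known target of it, had signals of 1221 and 1100 in Fah p21 off livers, 1211, 1172 and 910.0 in Fah off livers, and 382.8, 315.3, 551.3 and 522.0 in normal livers. Like the metallothioneins it was lowest among off livers in Fah off 3 and higher in the knockout than the wildtype livers on NTBC. Lpl, lipoprotein lipase, had 4130 and 5144 in Fah p21 off livers, 5022, 4549 and 3673 in Fah off livers, and 260.1, 258.2, 857.4 and 645.4 in normal livers.

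For Lcn2 the list was different, with Chek1 (r = 0.979), Tamm41 (0.977), Trip13 (0.976), Emp1 (0.974) and Anxa3 (0.973). Lcn2 correlated at 0.853 with Mt1 and 0.877 with Mt2. Chek1, a kinase of the DNA damage checkpoint, had 105.6 and 153.8 in Fah p21 off livers, 54.2, 57.4 and 65.3 in Fah off livers, and 13.1, 12.4, 9.2 and 47.8 in normal livers. As with Lcn2, Fah p21 off 2 was the highest liver and normal 4 the highest normal liver. Chek1 reached the 40th percentile only on the 2 Fah p21 off arrays, so it passed the filter through the livers where it was high. Its likeness to Lcn2 on the other arrays rests on dim signals. Trip13, an ATPase of the mitotic checkpoint, had 148.8 and 241.6 in Fah p21 off livers, 107.8, 112.1 and 76.4 in Fah off livers, and 36.2, 36.0, 31.6 and 57.4 in normal livers. It was below the 40th percentile in Fah off 3 and in every normal liver.

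**Figure D3:**
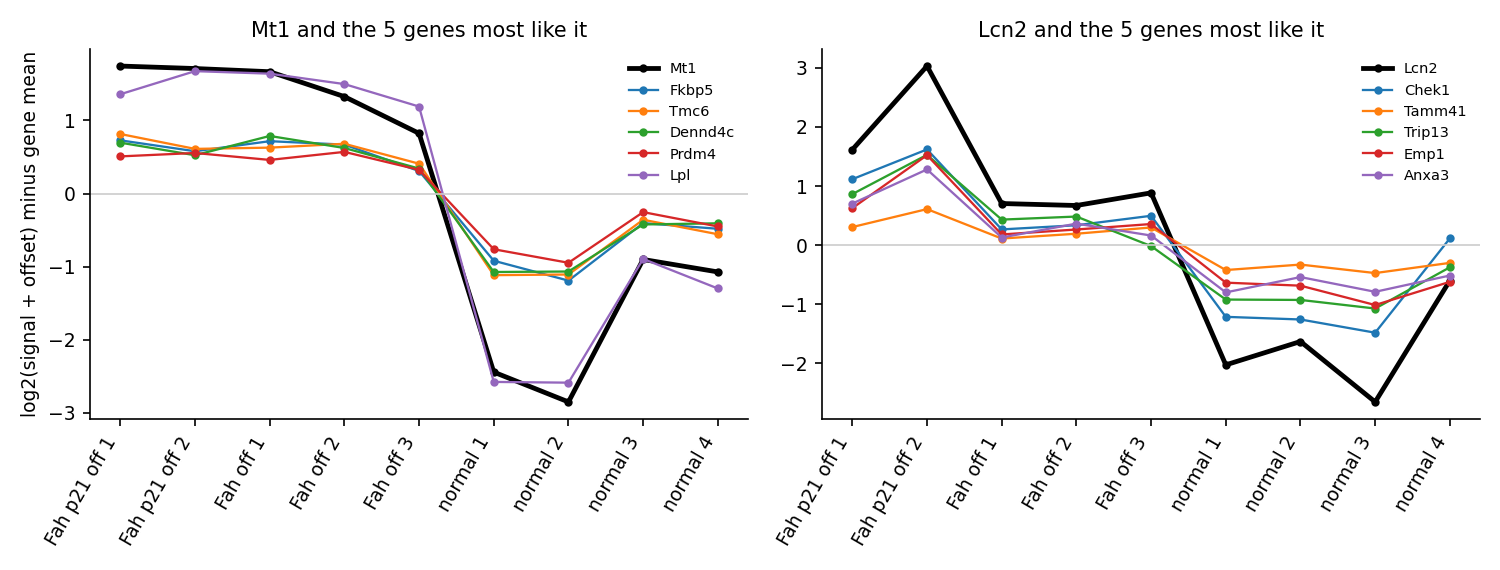
Log2(signal + offset) on each of the 9 arrays of 430A for Mt1 (left) and Lcn2 (right), each with the 5 genes most like it and each gene minus its own mean. Lines only join the points of a gene. Mt1 and Fkbp5 dip at Fah off 3, whereas Lcn2 and Chek1 peak at Fah p21 off 2.

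The other genes of the members' pathways were read as lists, each gene by its brightest probe set, and tested against normal. Passing were 28.4% of all tested probe sets for Fah p21 off (17.7% higher, 10.7% lower) and 35.5% for Fah off (20.1% higher, 15.4% lower), and over 9195 genes the median difference was 0.09 and 0.004. Of 18 tested genes of the remaining metallothioneins and zinc transport, 1 was higher and 0 lower in Fah p21 off livers (median 0.16), and 3 were higher and 0 lower in Fah off livers (median 0.14), but with arrays scaled to a common median the median in Fah p21 off was -0.07 and in Fah off 2 were higher and 1 lower. Slc39a4, a zinc importer of the plasma membrane, rose in both, by 0.99 ± 0.25 in Fah p21 off (SE, limma adjusted p = 0.0129) and 1.02 ± 0.22 in Fah off (SE, limma adjusted p = 0.00429). Its signals were 2045 and 2196 in Fah p21 off livers, 2545, 2333 and 1701 in Fah off livers, and 898.3, 804.0, 1584 and 1112 in normal livers. Mt3, the metallothionein known from brain, passed in Fah off (1.83 ± 0.57, SE) with uneven signals of 54.3, 80.8 and 289.8, against 16.0 to 35.8 in normal livers. Mt3 reached the 40th percentile only on Fah off 3 and Fah p21 off 1. Its passing the filter and its difference are therefore the same observation, and it is among the 3 genes counted as higher in Fah off. Slc30a4, a zinc transporter of vesicles, differed by 0.59 in Fah off. Mtf1, which encodes the metal-sensing factor, had 333.0 and 231.3 in Fah p21 off livers, 228.8 to 268.4 in Fah off livers and 94.3 to 218.9 in normal livers, and did not pass in either comparison (limma adjusted p = 0.0669 and 0.0755).

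On 430 2.0, 2 of 22 genes of that list were at least 2-fold higher in both Fah p21 off livers than in normal 4 and 1 was lower, against 11.1% and 4.47% of all tested probe sets. Higher were Mt4, at 74.1 and 69.9 against 28.6, and the zinc importer gene Slc39a6, at 631.9 and 681.2 against 206.9. Mt4 reached the 40th percentile on the 2 Fah p21 off arrays and not in normal 4, where that level was 34.2. Its passing the filter and its difference are therefore one observation. Lower was Slc30a10, a metal exporter gene, at 164.4 and 118.7 against 793.8.

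Of 11 copper genes tested, 3 rose and 4 fell in Fah p21 off livers (median -0.31), and 3 rose and 5 fell in Fah off livers (median -0.28). These counts depended on the scaling and the arrays. With a common median 1 rose and 5 fell in Fah p21 off (median -0.55), and without normal 4 and Fah p21 off 2, 1 rose and 3 fell (median 0.006). In Fah off 3 rose and 3 fell after quantile normalization. Atp7a, a copper-exporting ATPase, was at 297.7 and 277.4 in Fah p21 off livers, 321.6 to 332.0 in Fah off livers and 109.7 to 162.7 in normal livers. It rose by 1.04 in Fah p21 off and by 1.22 in Fah off, and the copper chaperone gene Atox1 by 0.84 and 1.21. Ccs, which loads copper onto superoxide dismutase, fell (-1.62 ± 0.13 in Fah p21 off and -1.30 ± 0.11 in Fah off, SE), as did Sco2, a copper chaperone of cytochrome oxidase (-1.55 and -1.44).

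Of the listed receptors and partners of lipocalin 2, 3 genes were tested, and 1 rose in each comparison. That was Hgf, the gene of hepatocyte growth factor, by 1.28 in Fah p21 off and 1.20 in Fah off. The lipocalin 2 receptor gene Slc22a17 was at 194.2 and 176.8 in Fah p21 off livers, 138.0 to 251.6 in Fah off livers and 198.3 to 235.0 in normal livers, and did not pass. Bdh2, an enzyme described as making a mammalian siderophore, was read on 430 2.0 only, at 123.2 and 128.7 in Fah p21 off livers against 395.4 in normal 4.

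Of 12 iron genes, 2 rose and 5 fell in Fah p21 off livers (median 0.10), and 4 rose and 4 fell in Fah off livers (median -0.05). After quantile normalization 2 rose and 2 fell in Fah p21 off, and 4 rose and 1 fell in Fah off. Hmox1, the heme oxygenase that frees iron from heme, rose by 3.00 ± 0.47 and 3.47 ± 0.41 (SE), and Tfrc, the transferrin receptor, by 2.01 and 1.70. Tfr2, the iron-sensing transferrin receptor of hepatocytes, fell (-2.19 and -2.36). Hamp, the iron hormone hepcidin, fell under the authors' scaling (-0.88 and -0.38), but in Fah off its difference was above 0 after quantile normalization, as were those of Hp and Fth1 in Fah p21 off. In the lipocalin family, 10 other genes were tested and 0 rose in either comparison (limma, with 6 at an unadjusted p under 0.05 in each, all of them lower). In Fah p21 off 5 fell (median -0.75) and in Fah off 6 fell (median -0.54), or 3 and 4 after quantile normalization, among them the complement gene C8g (-2.34 and -2.75) and the orosomucoid gene Orm1 (-1.60 and -1.81). Orm1, Orm2, Orm3 and Rbp4 are also on the list of other acute phase genes. The fall of that list is part of how the members were picked, so these counts are no independent result.

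Of 22 genes of interleukin-6, interleukin-1 and NF-kB signalling, 5 rose and 2 fell in Fah p21 off livers (median -0.01), and 4 rose and 4 fell in Fah off livers (median 0.09). The balance in Fah p21 off turned with the scaling: 3 rose and 5 fell both after quantile normalization (median 0.12) and with a common median (median -0.25). Without normal 4 and Fah p21 off 2, 3 rose and 2 fell there. Il1rap, the accessory chain of the interleukin-1 receptor, was at 234.2 and 261.0 in Fah p21 off livers, 110.9 to 228.2 in Fah off livers and 2337 to 3040 in normal livers, and fell (-3.38 ± 0.25 and -3.84 ± 0.22, SE). Il1r1, the receptor chain that binds the cytokine, rose by 1.71 and 1.96, and Cebpd, a C/EBP factor of the acute phase, by 1.24 and 1.04. Il1r1 was at 59.3 and 349.7 in Fah p21 off livers, 159.0 to 212.8 in Fah off livers and 30.8 to 53.0 in normal livers. It was below the 40th percentile in every normal liver and in Fah p21 off 1. Its passing the filter and its rise are therefore the same observation, and it is among the genes counted as rising in each comparison. Nfkbiz, an NF-kB cofactor that Lcn2 transcription is known to require, was at 210.8 and 213.5 in Fah p21 off livers, 76.0 to 147.5 in Fah off livers and 70.1 to 101.1 in normal livers. It rose by 1.22 ± 0.27 in Fah p21 off (SE, limma adjusted p = 0.00578), and in Fah off the difference was 0.41 and did not pass. Between the off groups Nfkbiz differed by 0.81 ± 0.28 (SE, limma adjusted p = 0.461). Stat3, the transcription factor of the interleukin-6 signal, fell (-0.72 and -0.47).

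Of 11 genes of the glucocorticoid receptor and its targets, 3 rose and 4 fell in each comparison (median -0.02 in Fah p21 off and -0.28 in Fah off), but without normal 4 and Fah p21 off 2, 2 rose and 2 fell in Fah p21 off. Igfbp1, which binds insulin-like growth factors, rose by 2.39 and 2.92, and Fkbp5 by 1.40 and 1.32. Tsc22d3, another target of the receptor, fell (-1.35 and -1.60), and so did the gluconeogenic gene Pck1 (-2.04 and -1.81). Of 17 genes of Nrf2 and oxidant defence, 10 rose and 3 fell in Fah p21 off livers (median 0.77), and 12 rose and 4 fell in Fah off livers (median 0.97), while after quantile normalization 11 and 13 rose and 0 fell in either. Slc7a11, which imports cystine, rose by 3.60 and 3.97, Srxn1 by 3.19 and 3.38 and Nqo1 by 2.87 and 2.70.

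Of 28 other acute phase genes, 1 rose and 21 fell in Fah p21 off livers (median -0.87), and 1 rose and 23 fell in Fah off livers (median -0.85). That most of them fell is part of how Mt1, Mt2 and Lcn2 were picked and is no independent result. The riser was Cd14, a co-receptor for bacterial lipopolysaccharide, at 809.5 and 1022 in Fah p21 off livers, 853.4 to 1023 in Fah off livers and 164.3 to 292.0 in normal livers, with differences of 1.98 and 2.02. Saa1, a serum amyloid A gene, was at 51.6 and 126.5 in Fah p21 off livers, 14.6 to 70.9 in Fah off livers and 1171 to 3993 in normal livers (-4.25 ± 0.55 and -5.19 ± 0.49, SE). Saa3, the serum amyloid gene also made outside hepatocytes, was at 438.9 and 439.8, at 381.2 to 618.6 and at 78.8 to 761.8 in the same groups and did not pass. Crp fell too (-2.15 and -2.59). Among the fallers Hp, Alb and Ttr in Fah p21 off and Hamp in Fah off had differences just above 0 after quantile normalization. On 430 2.0, 2 of 28 acute phase genes were at least 2-fold higher in both Fah p21 off livers than in normal 4 and 10 were lower, against 11.1% and 4.47% of all tested probe sets. Higher were Cd14, at 1424 and 1431 in Fah p21 off livers against 266.4 in normal 4, and Il1rn, the interleukin-1 receptor antagonist, at 358.5 and 337.2 against 110.2 (probe set 1451798_at). On 430A Il1rn was read by another probe set, 1423017_a_at, and leaned the other way without passing. It was at 135.7 and 215.9 in Fah p21 off livers against 195.5 to 282.9 in normal livers (-0.45), and differed by -0.49 in Fah off. Among the lower ones, Saa1 was at 108.8 and 162.1 against 10536.

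**Figure D4:**
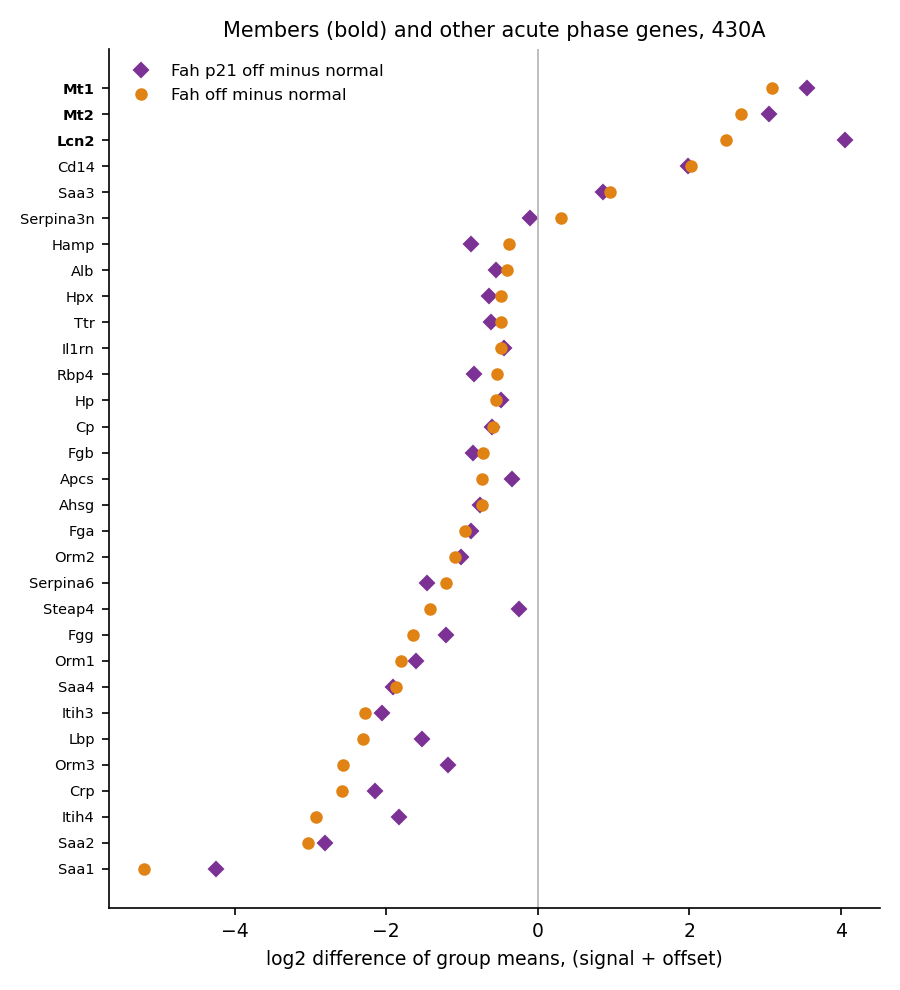
Log2 difference from normal of Mt1, Mt2, Lcn2 and the 28 other acute phase genes tested on 430A, for Fah p21 off and Fah off livers. Cd14 is the listed gene that rose by the limma test, at 1.98 and 2.02, and Saa1 fell furthest, at -4.25 and -5.19.

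Between Fah p21 off and Fah off livers, no gene of any of these lists or of the marker lists passed (limma, 0 of each). At an unadjusted p under 0.05 there were 6 of 28 other acute phase genes, 2 each of the lipocalin family, interleukin and NF-kB signalling and hepatocyte markers, 1 each of copper, iron, neutrophil and kidney genes, and 0 of the others. Over all 9195 genes, 793 reached that level and 3 were higher and 1 lower by the adjusted test, while of all tested probe sets 0.0261% were higher and 0.0131% lower.

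Lcn2 is also a neutrophil granule gene, so markers of other cells were read beside it. Of 13 neutrophil markers on 430A, 8 were tested and 0 passed against normal in either off group (limma, with 1 of 8 at an unadjusted p under 0.05 in each, medians -0.13 in Fah p21 off and -0.26 in Fah off). Their summed signal was 1201 and 1216 in Fah p21 off livers, 898.8 to 1031 in Fah off livers and 932.1 to 1814 in normal livers, so no off liver was above the highest normal one. S100a9, a defining neutrophil gene, was at 49.3 and 52.8 in Fah p21 off livers, 21.4 to 33.8 in Fah off livers and 26.5 to 54.3 in normal 1 to 3, but at 191.7 in normal 4. Ltf, the gene of the granule protein lactoferrin, was at 196.5 and 255.7 in Fah p21 off livers, 105.9 to 165.8 in Fah off livers and 113.0 to 196.4 in normal livers. Like Lcn2 it was highest in Fah p21 off 2, while Fah p21 off 1 was level with the highest normal liver. It differed by 0.67 ± 0.26 between Fah p21 off and Fah off (SE, limma adjusted p = 0.539) and by 0.59 ± 0.25 between Fah p21 off and normal (SE, limma adjusted p = 0.103). On 430 2.0, 1 of 6 neutrophil markers was at least 2-fold higher in both Fah p21 off livers than in normal 4 and 1 was lower. Of all tested probe sets 11.1% were higher and 4.47% lower, and nothing is read from a count over 6 markers. The higher marker was Ltf, at 224.8 and 155.9 against 64.2, and the lower one S100a9, at 21.1 and 85.2 against 264.3. The part of neutrophils in the Lcn2 level of the off livers was not tested. Normal 4 was also the highest normal liver for Lcn2 (258.6), Saa1 (3993), Saa2 (872.5), Saa3 (761.8) and the neutrophil sum (1814), and the part of neutrophils in its Lcn2 level was not tested. No marker was listed at 0 on all arrays of a group.

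**Figure D5:**
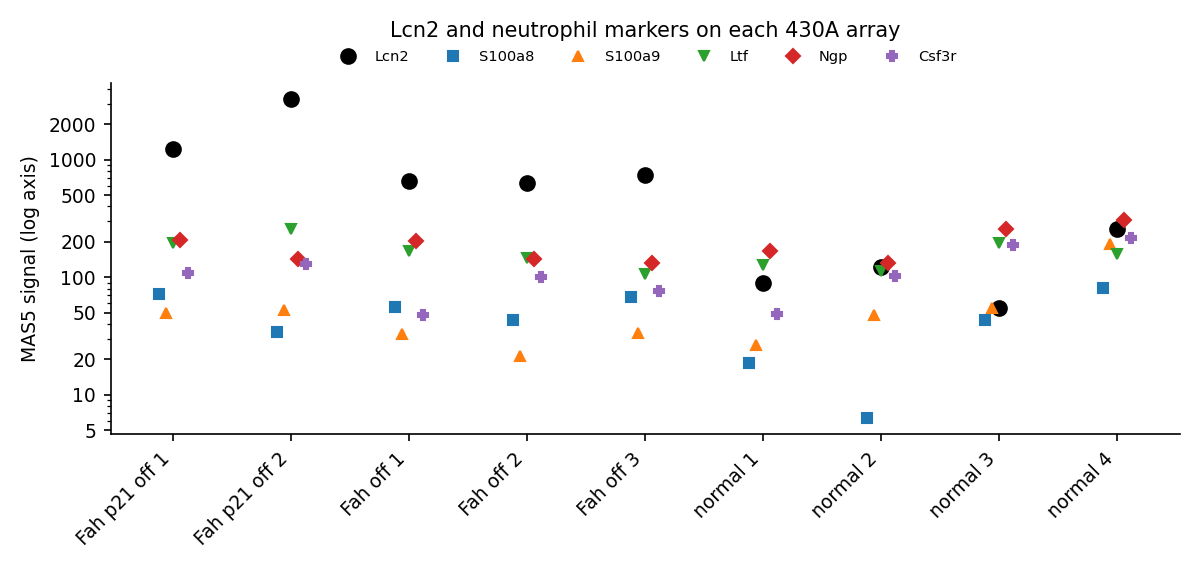
Signal of Lcn2 and of the neutrophil markers S100a8, S100a9, Ltf, Ngp and Csf3r on each 430A array (log axis), with Fah p21 off left of Fah off and normal. S100a9 is highest in normal 4 at 191.7, and Lcn2 is highest in Fah p21 off 2 at 3309.

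Some macrophage markers rose in off livers. Of 12 tested, 7 rose in Fah p21 off (median 0.59, with 3 rising when arrays were scaled to a common median) and 3 in Fah off (median 0.35), and 0 fell. Lyz2, a lysozyme gene, rose by 1.63 and 1.34, and Cd68 by 1.25 and 0.81. Their summed signal over 14 markers was 13684 and 13789 in Fah p21 off livers, 10195 to 12376 in Fah off livers and 6901 to 11860 in normal livers, with normal 4 the highest of the normal ones. The part of macrophages in the members' levels was not tested. Of 10 hepatocyte markers, 9 fell and 0 rose in each comparison (medians -0.61 in Fah p21 off and -0.54 in Fah off), but after quantile normalization 3 fell in Fah p21 off (median -0.11) and 4 in Fah off (median -0.19). The tyrosine aminotransferase gene Tat fell furthest (-2.40 and -2.96). After quantile normalization the differences of Apoa1 in both comparisons, and of Alb and Ttr in Fah p21 off, were just above 0. Kidney tubule markers, read because kidney also makes Lcn2, had 0 of 3 tested passing (limma, with 1 at an unadjusted p under 0.05 in Fah p21 off and 0 in Fah off).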

How the data were processed

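Liver RNA of 12 samples was measured on Affymetrix arrays, 9 on 430A and 3 on 430 2.0. Per the submitters' processing notes the authors used GCOS 1.4.0.036 and MAS5, and the deposited values are intensity signals on a linear scale, 1 per probe set and array. Per the labels' protocols RNA came from 10-week-old mice. The members and all gene lists were chosen with earlier results of these data known.

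Of 22690 and 45101 probe sets, 64 controls each were left out. Symbols came from GEO's platform annotation, checked by identifier against the RefSeq gene table of GRCm38.p6 (20351 of 20380 and 34741 of 34945 single-symbol probe sets matched). Log2(signal + offset) used the 10th percentile of each table as offset. All 9 arrays of 430A entered 1 fit in limma 3.58.1 (R 4.3.3, lmFit and eBayes with trend, 6 residual and 5.01 prior degrees of freedom), and a second fit set each off group against its own genotype on NTBC. On 430 2.0 no test was made. Named were the members, from each list up to 4 genes that passed with the largest change (where fewer than 2 passed, the 2 of smallest p), and the 5 genes most correlated with each member. Further list genes (such as Mtf1, Slc22a17, Saa3, Il1rn, Stat3 and S100a9) were named after their values were seen. Each gene was read by its brightest probe set. On simulated data of 15307 probe sets, recovery of 2-fold and 4-fold changes was 40% and 92% between Fah p21 off and Fah off (3 false calls), 55% and 90% for Fah off against normal (8 false calls), and 47% and 88% for Fah p21 off against normal (6 false calls). Among the 36 array pairs of 430A the highest share of identical signals was 0.407%, so all were kept as separate. The number of arrays limits the precision. Alternatives were other filters, offsets and scalings, limma without trend or robust, a replicate block, fewer arrays and each array left out, and the closing part gives their effect. Figures used matplotlib 3.10.9 in Python 3.11.15.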

Additional observations from a re-analysis of the deposited data

Results flagged for a closer look

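Among the 4 normal livers, 66 named probe sets were examined for a liver far from the other 3 by Dixon's test, and 3 stood out. Chance alone marks about 1 in 20 such groups. Orm1 (1451054_at) was at 2852 in normal 3, the Fah knockout on NTBC, against 4308 to 4672 in the others. Cd68 (1449164_at) was at 262.4 in normal 4, the double knockout on NTBC, against 186.5 to 190.9 in the others. Kap (1415968_a_at) was at 257.4 in normal 4, against 159.8 to 170.7 in the others. No Mt1, Mt2 or Lcn2 probe set stood out, and no named gene differed in its response to withdrawal between single and double knockouts (limma, 0 past an adjusted p of 0.05).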

How the results depend on the processing

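Of 184 alternative values for member changes, 0 reversed and 179 moved by less than the spread or kept their call. Other filters, limma without trend or robust, and leaving out an array outside the comparison could not move a difference. Between the off groups an alternative counted as kept when it still did not pass, as Lcn2 did at both 0.86 and 2.28. The tally therefore says little about stability, and the rises against normal chose the genes. In Fah p21 off against Fah off, 0 of 60 alternatives passed, with adjusted p between 0.611 and 0.990 for Mt1, 0.720 and 0.999 for Mt2, and 0.222 and 0.978 for Lcn2. Leaving out 1 array at a time gave differences of 0.23 to 0.65 for Mt1, 0.04 to 0.60 for Mt2 and 0.86 to 2.28 for Lcn2. Against normal such ranges were 3.20 to 3.85, 2.90 to 3.23 and 3.34 to 4.76 in Fah p21 off, and 2.75 to 3.40, 2.46 to 3.02 and 2.17 to 2.86 in Fah off. Against the genotype-matched normal mouse alone, Mt2 was at 2.53 and Lcn2 at 2.92 in Fah p21 off, and Mt1 at 2.18 and Lcn2 at 3.41 in Fah off. The last of these values rests on the dim Lcn2 signal of normal 3. On 430 2.0 an offset at the 25th percentile gave 2.86 for Mt1 (1451612_at), against 3.79.

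The 6 probe sets called between Fah p21 off and Fah off became 1 with the 60th percentile filter, with no offset and with the replicate block, 2 with robust limma and with the 5 compared arrays alone, 3 with a common median, 13 without trend and 14 with the 25th percentile offset. Leaving out 1 array gave 1 to 58, the 58 without Fah p21 off 1. For Fah off against normal 5437 became 2572 with the matched mouse, and 4304 to 5245 leaving out 1 array. For Fah p21 off against normal 4353 became 1824 with the matched mouse and 2481 to 4635 leaving out 1 array (2481 without Fah p21 off 1 and 2563 without Fah p21 off 2). There 2716 were higher and 1637 lower, against 1626 and 2507 with a common median, which moved the median of all probe sets to -0.13, against 0.11. An alternative chosen after seeing the data, without normal 4 and Fah p21 off 2, called 2 between the off groups and 2756 for Fah p21 off against normal. In it 2 other acute phase genes rose and 23 fell in Fah off and 1 rose and 18 fell in Fah p21 off, while macrophage genes that rose were 7 in Fah off and 5 in Fah p21 off. Deviations from the group means in 7 same-numbered pairs correlated at -0.28 to 0.07, 0 of them over 0.1. Within groups of 2 to 4 arrays such deviations are tied to each other. The correlations therefore cannot tell whether a replicate number marks a shared batch.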
